A study of Macaca mulatta with 10 samples.

Results

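The Janus kinases JAK1, JAK2, JAK3 and TYK2 and the transcription factors STAT3, STAT4, STAT5A, STAT5B and STAT6 were described in Tr1 cells of rhesus macaques with islet allografts. These 9 genes were taken by symbol from the 26484 genes of the count table, 4 of them kinases and 5 of them STAT factors, and each symbol occurred in the table and among the macaque genes of RefSeq. Tr1 cells are regulatory CD4 T cells that release IL-10, and here they were sorted as CD4+CD49b+LAG-3+ cells from blood mononuclear cells that had been frozen, thawed and rested overnight. The 5 monkeys of Cohort C (13EP5, 14HP33, 14HP24, 15CP1 and 15CP4) had been infused with apoptotic donor leukocytes (ADLs) around the time of transplantation. The 5 monkeys of Cohort B (13EP12, 13EP8, 14HP26, 14HP31 and 15CP6) had not. All monkeys had streptozotocin-induced diabetes, received islets from a donor matched for 1 MHC class II DRB allele, and were given the same transient immunosuppression with an anti-CD40 antibody, rapamycin, soluble TNF receptor and an antibody to the IL-6 receptor. The IL-6 receptor signals through JAK1, JAK2, TYK2 and STAT3, so both cohorts had received an agent that acts on the pathway. Per the study's methods these drugs were stopped within weeks of transplantation, well before day 365. Each monkey gave 1 library. The ages of these 10 monkeys were not given one by one in the sources used here. The labels placed collection at sacrifice, at rejection in Cohort B and at the planned end on day 365 in Cohort C, while the study's text describes grafts of some Cohort B monkeys as surviving to the end, and Cohort C monkey 15CP1, the deepest library, as not killed at that end. ADL treatment and day or state of the graft at sampling therefore cannot be told apart.

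Cytokine receptors of this class have no enzyme activity of their own and hold Janus kinases at their inner ends. Binding of the cytokine brings the kinases together, they phosphorylate the receptor and then the STAT proteins bound to it, and STAT dimers enter the nucleus to switch genes on. In T cells, JAK1 and JAK3 serve receptors with the common gamma chain such as those for IL-2 and IL-7, whose main factors are STAT5A and STAT5B. TYK2 and JAK2 serve the IL-12 receptor and STAT4, JAK1 and STAT6 serve the IL-4 receptor, and IL-6, IL-10 and IL-21 act largely through STAT3. SOCS and PIAS proteins and protein tyrosine phosphatases restrain the pathway. Messenger RNA levels do not report how much of a kinase or STAT protein is phosphorylated.

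Depth differed widely between monkeys. The libraries held between 6076 and 5895609 counts, and 4 of them held more than 1000000, from 13EP12 and 13EP8 in Cohort B and from 13EP5 and 15CP1 in Cohort C. In monkey 14HP33 of Cohort C the mitochondrial rRNA-like gene MTRNR2L1 took 82.6% of the counts. The floor of detection was set at 3 counts. As counts per 1000000 counts of the library (CPM) this came to 0.509 CPM in monkey 15CP1, 26.3 CPM in monkey 14HP26, 45.1 CPM in monkey 15CP4 and 494 CPM in monkey 14HP31. Of the sorting markers, CD4 had 338, 94, 0, 0 and 13 counts in Cohort B and 772, 0, 19, 766 and 0 in Cohort C, in the order of monkeys given above. ITGA2, which encodes CD49b, had at least 1 count in 4 libraries and LAG3 in 3. All 12 T cell markers examined were detected in monkeys 13EP12, 13EP5 and 15CP1, 11 in monkey 13EP8, 6 in monkey 15CP6, 5 in monkey 14HP24, and between 0 and 3 in the other libraries. In monkeys 14HP26, 14HP31, 14HP33 and 15CP4 at least 9 of the 12 markers, CD4 among them, were therefore at 0, and the cell type of these libraries could not be checked.

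The JAK and STAT genes were seen mostly in the libraries that held T cell markers. Monocyte markers followed the same libraries, at 1472, 1568, 0, 0 and 400 counts in Cohort B and 593, 1, 76, 6693 and 0 in Cohort C. Which cells gave the 9 genes was not tested. All 9 were detected in monkeys 13EP12, 13EP8, 13EP5 and 15CP1, 6 in monkey 15CP6 and 5 in monkey 14HP24. The other monkeys had 1 gene (14HP26, STAT3), 2 genes (14HP31, STAT4 and STAT5B), 1 gene (14HP33, a single count of JAK1) and none (15CP4). The counts summed over the 9 genes were 2503, 2305, 6, 6 and 858 in Cohort B and 6013, 1, 127, 11547 and 0 in Cohort C. Scaled to the library, the 9 genes together stood between 1656 and 2101 CPM in the 4 deep libraries and at 1884 CPM in monkey 15CP6. Monkey 14HP24 had 927 CPM and monkey 14HP33 had 1.03 CPM. For every gene, monkey 15CP1 alone gave between 46.5% (JAK2) and 58.9% (STAT6) of all counts, so a sum over the table mostly describes that animal.

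**Figure D1:**
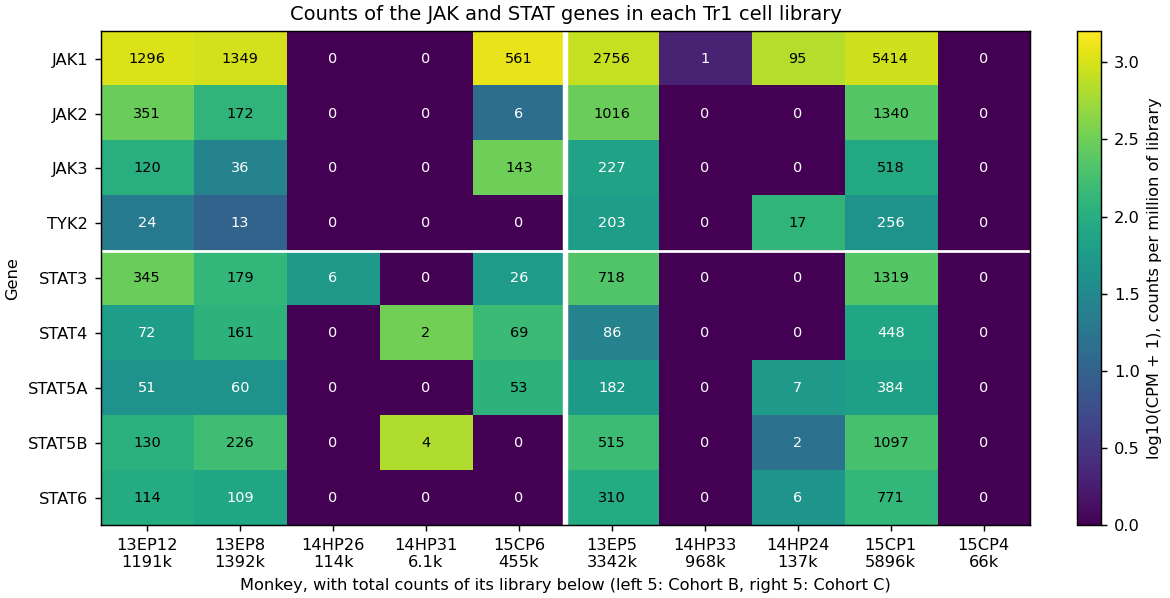
Counts of the 9 genes (rows) in the 10 libraries (columns, with total counts beneath, k for 1000), printed in each cell and coloured by log10(CPM + 1). All 9 genes are present in 13EP12, 13EP8, 13EP5 and 15CP1, and the columns of 14HP26, 14HP31, 14HP33 and 15CP4 are nearly empty in both cohorts.

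JAK1, the kinase shared by the gamma chain, IL-6 and interferon receptors, had the highest count of the 9 genes in each library with more than 6 counts of them in all. It had 1296, 1349, 0, 0 and 561 counts in Cohort B and 2756, 1, 95, 5414 and 0 in Cohort C. Where it was over 3 counts its level was 1088 CPM in 13EP12, 969 CPM in 13EP8 and 1232 CPM in 15CP6 of Cohort B, and 825 CPM in 13EP5, 694 CPM in 14HP24 and 918 CPM in 15CP1 of Cohort C. By CPM these 3 Cohort C libraries all lay below these 3 Cohort B libraries. With TMM factors the cohorts overlapped, at 1121, 1029 and 1237 CPM against 857, 547 and 1120 CPM. In the other 4 libraries JAK1 was at 0 or 1 count. At the lowest of those levels, 694 CPM, they would have held 79.0 counts (14HP26), 4.21 counts (14HP31), 672 counts (14HP33) and 46.1 counts (15CP4). Each of these values is over the floor of 3 counts, by little in 14HP31, so the JAK1 count in all 4 libraries was below what their depth would give at that level. The 672 counts of 14HP33 rest on all 968423 of its counts, of which only 168142 lay outside MTRNR2L1, so they overstate its shortfall. In this kind of bulk sample, fewer cells of a type and less RNA per cell cannot be told apart.

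JAK2, which pairs with TYK2 at the IL-12 receptor and serves the interferon gamma receptor, had 351, 172, 0, 0 and 6 counts in Cohort B and 1016, 0, 0, 1340 and 0 in Cohort C. Its level was 295 and 124 CPM in monkeys 13EP12 and 13EP8 and 304 and 227 CPM in monkeys 13EP5 and 15CP1. Monkey 15CP6 stood apart with 13.2 CPM (95% Wilson interval from counting 6.04 to 28.7 CPM), although its JAK1 was the highest of all libraries. JAK2 was 1.06% of the JAK1 and JAK2 counts there (interval 0.486 to 2.29%) and between 11.3 and 26.9% in the 4 deep libraries. Intervals here and below cover counting error only.

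JAK3, the kinase bound to the common gamma chain, had 120, 36, 0, 0 and 143 counts in Cohort B and 227, 0, 0, 518 and 0 in Cohort C. In Cohort B its level ran from 25.9 CPM in monkey 13EP8 through 101 CPM in monkey 13EP12 to 314 CPM in monkey 15CP6, and in Cohort C it was 67.9 CPM in monkey 13EP5 and 87.9 CPM in monkey 15CP1. The detected libraries of Cohort C therefore lay inside the range of Cohort B. As a share of JAK1 and JAK3 counts, JAK3 was 20.3% in monkey 15CP6 (17.5 to 23.4%) and 2.60% in monkey 13EP8 (1.88 to 3.58%), with 7.61 to 8.73% in the other deep libraries.

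TYK2, the kinase of the IL-12, IL-10 and type I interferon receptors, was the least counted of the 9 genes. It had 24, 13, 0, 0 and 0 counts in Cohort B and 203, 0, 17, 256 and 0 in Cohort C. Each library with TYK2 counts in Cohort C lay above each library of Cohort B, at 60.8, 124 and 43.4 CPM in monkeys 13EP5, 14HP24 and 15CP1 against 20.2 and 9.34 CPM in monkeys 13EP12 and 13EP8. The cohorts as a whole overlapped, since both held libraries at 0. Relative to JAK1 in the same library, TYK2 was 1.82 and 0.955% of the 2 genes' counts in the deep Cohort B libraries and 6.86 and 4.52% in the deep Cohort C libraries, and the counting intervals of the cohorts did not touch (1.22 to 2.69% in 13EP12 and 6.00 to 7.83% in 13EP5, for example). Monkey 15CP6 had no TYK2 among 561 counts of the pair, which allows up to 0.680%, and monkey 14HP24 had 17 of 112 (15.2%, interval 9.70 to 23.0%). JAK1, the base of these shares, was itself lower by CPM in the Cohort C libraries with counts. The order of TYK2 was noticed in the data and covers at most 3 monkeys a side. How many other genes were ordered in this way was not counted, and the counting intervals do not measure the spread between monkeys.

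**Figure D2:**
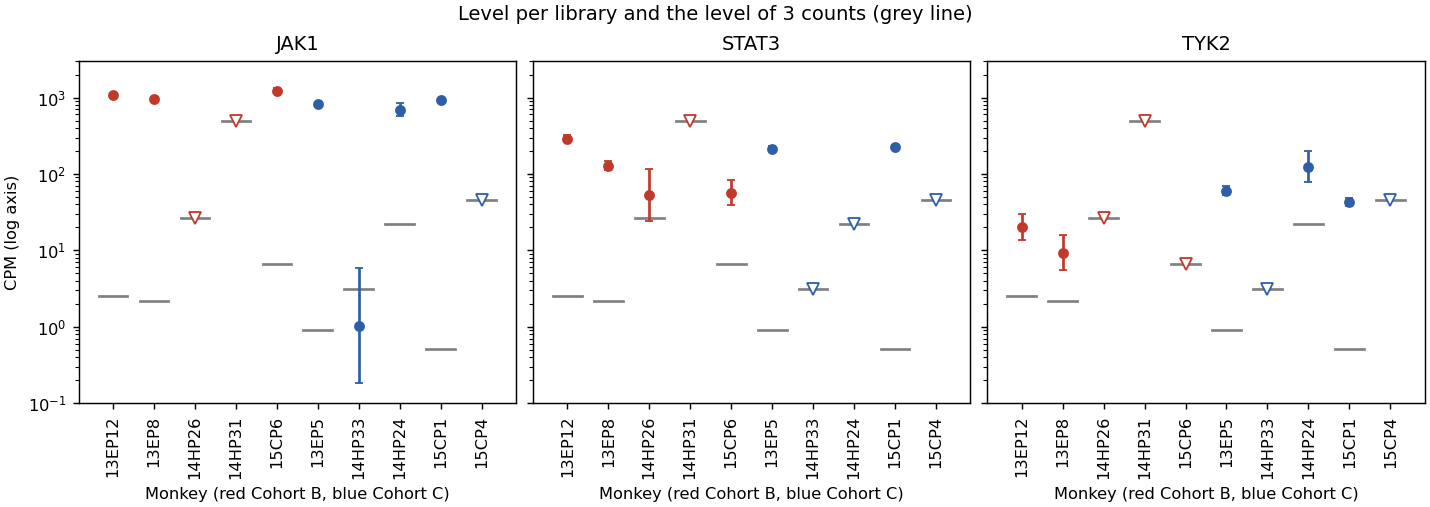
Level of JAK1, STAT3 and TYK2 in each library in CPM on a log axis, with 95% Wilson counting intervals as error bars. Grey lines mark the level of 3 counts, and open triangles at that line stand for libraries without a count. JAK1 sits between 694 and 1232 CPM in 6 libraries, and the filled TYK2 points of Cohort C lie above those of Cohort B.

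Among the STAT factors, STAT3, which carries the signals of IL-6, IL-10 and IL-21, had the most counts. It had 345, 179, 6, 0 and 26 counts in Cohort B and 718, 0, 0, 1319 and 0 in Cohort C. The level in Cohort B was 290, 129, 52.7 and 57.1 CPM in the 4 libraries with counts, and in Cohort C it was 215 and 224 CPM in monkeys 13EP5 and 15CP1. STAT3 was the only member found in monkey 14HP26. It had no count in monkey 14HP24, where the lowest level seen elsewhere would have given 7.21 counts, and which held 95 counts of JAK1.

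STAT4, the factor of IL-12 signalling, had 72, 161, 0, 2 and 69 counts in Cohort B and 86, 0, 0, 448 and 0 in Cohort C. Its level was 60.5, 116 and 152 CPM in monkeys 13EP12, 13EP8 and 15CP6 and 25.7 and 76.0 CPM in monkeys 13EP5 and 15CP1, so the highest Cohort C library lay between the Cohort B libraries. Among the 5 STAT genes it took 10.1, 21.9 and 46.6% of the counts in those Cohort B monkeys and 4.75 and 11.2% in those Cohort C monkeys.

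STAT5A and STAT5B, the factors of IL-2 and IL-7, are close paralogs, so reads could have been split between them or lost by the counting. Their values are uncertain to that extent. The genes neighbour and overlap each other and lie beside STAT3 in the macaque annotation of RefSeq. The reads were mapped to the human build, however, and whether the genes overlap in its annotation was not examined. STAT5A had 51, 60, 0, 0 and 53 counts in Cohort B and 182, 0, 7, 384 and 0 in Cohort C. STAT5B had 130, 226, 0, 4 and 0 counts in Cohort B and 515, 0, 2, 1097 and 0 in Cohort C. In the 4 deep libraries the balance of the pair was nearly constant, with STAT5B at 71.8, 79.0, 73.9 and 74.1% of their summed counts. Monkey 15CP6 departed from it, with 0 of 53 counts from STAT5B (upper bound 6.76%), and its STAT5A level, 116 CPM, was the highest of all libraries while STAT5B would have had 73.9 counts at its median level.

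STAT6, the factor of IL-4 and IL-13, had 114, 109, 0, 0 and 0 counts in Cohort B and 310, 0, 6, 771 and 0 in Cohort C. Its level in the deep libraries was 95.7 and 78.3 CPM in Cohort B and 92.8 and 131 CPM in Cohort C, so that the cohorts overlapped. Monkey 15CP6 again had none, where the median level of 92.8 CPM would have given 42.3 counts.

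Monkey 15CP6 of Cohort B thus held an uneven mixture, with JAK1, JAK3, STAT4 and STAT5A well counted and TYK2, STAT5B and STAT6 at 0. The summed T cell markers stood at 1576 CPM in this library, within 1404 to 1715 CPM of the deep libraries, but through 6 of the 12 genes. It detected 4848 genes, against 8900 to 15068 in the deep libraries, and its erythroid markers summed to 262 counts, against 0 in the deep libraries. MTRNR2L1 took 18.8% of the counts of 15CP6, against 2.30 to 2.82% in the deep libraries. Whether these features of 15CP6 moved the JAK and STAT counts was not tested. Monkey 14HP24 of Cohort C was uneven too, with 95 counts of JAK1 and 17 of TYK2 but none of JAK2, JAK3, STAT3 or STAT4.

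**Figure D3:**
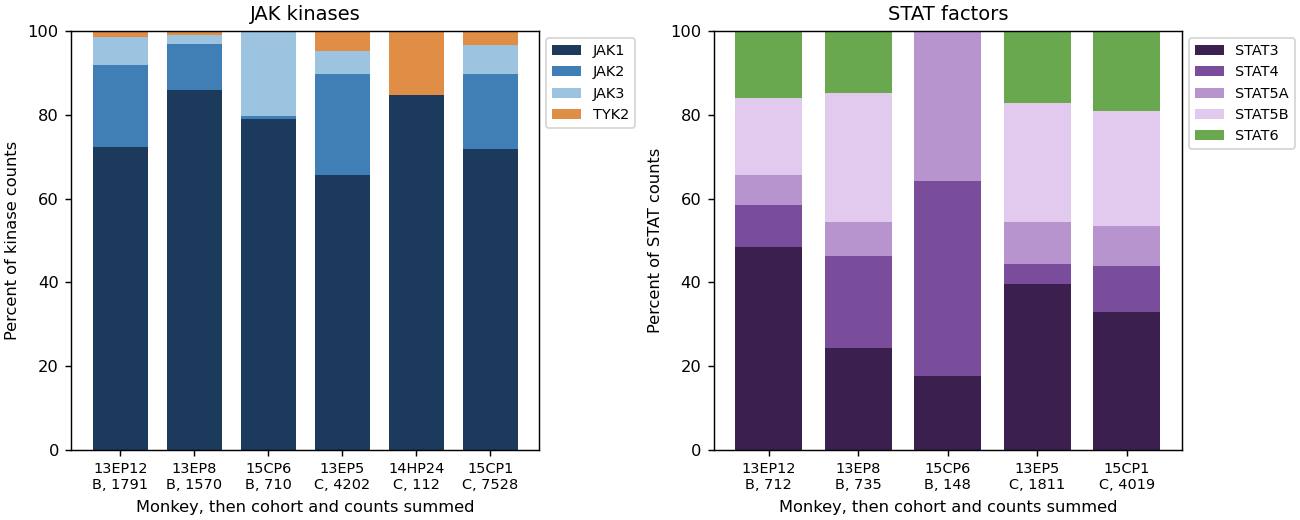
Share of each gene in the summed counts of the 4 kinases (left) and of the 5 STAT factors (right), for libraries with at least 20 such counts. JAK1 makes up 65.6 to 85.9% of kinase counts in all 6 bars, and the 15CP6 bars lack TYK2, STAT5B and STAT6.

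Levels of different genes were compared only per transcript length, as FPKM (fragments per kilobase of transcript, scaled to the library), and only within a library, since the deposited FPKM of a member per CPM of its own counts had a median of 1.34 in monkey 13EP5 and of 0.0434 to 0.226 in the others. JAK1 ranked first of the 9 in all 6 libraries with more than 6 counts of the members, with 203 FPKM in monkey 13EP12 and 184 FPKM in monkey 15CP1. The second place varied, being STAT3 in monkeys 13EP12 (66.5 FPKM) and 15CP1 (51.8 FPKM), STAT4 in monkey 13EP8 (72.5 FPKM), JAK3 in monkey 15CP6 (25.4 FPKM), JAK2 in monkey 13EP5 (466 FPKM) and TYK2 in monkey 14HP24 (11.1 FPKM). By contrast TYK2 was last in monkeys 13EP12, 13EP8 and 15CP1, at 1.82, 2.30 and 7.58 FPKM, and STAT4 was last in monkey 13EP5 at 36.9 FPKM. Below JAK1 the order by FPKM changed from monkey to monkey within each cohort. It did not follow the counts throughout, since the members' FPKM per CPM within a library ranged from 0.0627 (STAT4) to 0.258 in monkey 13EP12 and from 0.110 to 0.627 (STAT4) in monkey 13EP8. STAT4 thus ranked 8th in 13EP12 and 2nd in 13EP8 by FPKM, while its count level was 60.5 and 116 CPM.

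Between the cohorts, none of the 9 genes passed a test. The TMM factors were 0.820 to 0.971 in the 4 deep libraries, but 0.0727 in 14HP33, 2.42 in 15CP4 and 4.17 in 14HP31. They raised the single JAK1 count of 14HP33 from 1.03 to 14.2 CPM. With edgeR's quasi-likelihood test on TMM-normalized counts, the call rule was that of the study's methods, a change of 1.5-fold or more and p below 0.01 without adjustment. This called 0 of the 9 members and 6.43% of the 14168 genes tested, 1.07% as higher and 5.36% as lower in Cohort C. Of these 911 calls 152 were higher, and 515 of 1525 were higher with RLE size factors in place of TMM. The split turned without monkey 13EP5, where 65 of 76 calls were higher, and with the 4 deepest libraries, where 68 of 117 were. When p was adjusted by the Benjamini-Hochberg method, edgeR called 0 of all genes at 0.05 (0%), while 2923 genes and 0 members had p below 0.05 without adjustment. The largest estimates were those of TYK2, with a log2 fold change of Cohort C over Cohort B of 2.60 (SE 2.2, adjusted p = 0.708), and STAT4, with -1.74 (SE 2.09, adjusted p = 0.925). JAK3 followed at -1.31 (SE 2.04), and the estimates of the other 6 genes lay between -0.42 (JAK1, SE 1.84) and 0.63 (STAT6, SE 2.04), each with an adjusted p = 1.0. The estimate of STAT3, -0.10 (SE 1.97) here, moved to -2.32 (SE 1.52) with limma-voom. An SE of 2.0 on the log2 scale leaves a 4-fold difference in either direction within 1 SE, so the absence of calls does not show that the cohorts were alike. Of the 9 estimates, 3 were positive and 6 negative, with a median of -0.11, against 7585 positive of 14168 and a median of 0.16 over all genes tested. That split rested on single libraries, since 6 were positive without 14HP33 or without 15CP4, 5 without 13EP12 or without 14HP24, 2 without 13EP5 and 1 without 15CP1.

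Other tests of the same comparison called no member either. In the two-sided exact permutation test of log2(TMM-normalized CPM + 1) over every assignment of the libraries to cohorts, whose smallest possible p is 0.00794, the lowest p was that of STAT4, with means of 5.30 ± 3.01 (SD, n = 5) in Cohort B and 2.27 ± 3.17 (n = 5) in Cohort C (exact p = 0.143, adjusted p = 1.0). The Cohort B mean of STAT4 included 6.32 from only 2 counts in monkey 14HP31. The exact permutation p of STAT4 was 0.27 without that monkey and 0.0635 without monkey 14HP26. TYK2 had means of 1.58 ± 2.19 and 3.68 ± 3.37 on that scale (exact permutation p = 0.286, n = 5 per cohort). JAK1 and JAK2 changed sign between the tests. Their differences of means, Cohort C minus Cohort B, were 0.497 and -0.540 on that scale, against -0.42 and 0.39 with edgeR. The permutation test called 0 of all genes (0%) after adjustment, with 34 genes and 0 members below 0.05 before it. Since p cannot fall below 0.00794, adjustment over all genes can call a gene only where very many reach that p together. The adjusted result therefore says little about any gene. Limma on log2(FPKM + 1) over 10307 genes likewise called 0 (0%), with 15 genes and 0 members below 0.05 before adjustment, and gave TYK2 a difference of 1.9 (SE 1.65) and STAT4 at -1.06 (SE 2.12). The FPKM differences carry the scale of monkey 13EP5 described above. Since each library is a separate monkey, these p-values measure the spread between animals, to which depth adds.

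When the fit was limited to the 4 libraries with more than 1000000 counts, a choice made after the counts had been seen, the errors shrank. JAK1 was at -0.28 (SE 0.37), STAT3 at 0.04 (SE 0.53) and JAK2 at 0.31 (SE 0.54), so the error of JAK1 fell most, from 1.84 to 0.37. TYK2 stayed the largest at 1.78 (SE 1.17, edgeR adjusted p = 0.800), and STAT4 was at -0.82 (SE 0.85). JAK3, STAT3, STAT5A and STAT5B turned from negative to positive, giving 7 of 9 positive with a median of 0.28, beside 0.32 over all genes. The call rule picked 0 members and 0.881% of 13274 genes. In these libraries monocyte markers summed to 1236, 1126, 178 and 1135 CPM in 13EP12, 13EP8, 13EP5 and 15CP1, led by VCAN. The sum was low in monkey 13EP5 mainly through VCAN, with 1104, 1084, 184 and 4416 counts in that order. S100A8 (47, 37, 0 and 128 counts) and S100A9 (86, 155, 0 and 611 counts) had no count there. LYZ (83, 210, 125 and 668 counts) and CD14 (45, 28, 36 and 295 counts) were low there for its depth. CSF1R (43, 36, 134 and 284 counts) and CD68 (64, 18, 114 and 247 counts) were not. Platelet markers summed to 265 CPM in 13EP5 and to at most 21.8 CPM in the other 3. The part of these cells in the JAK and STAT levels was not tested.

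**Figure D4:**
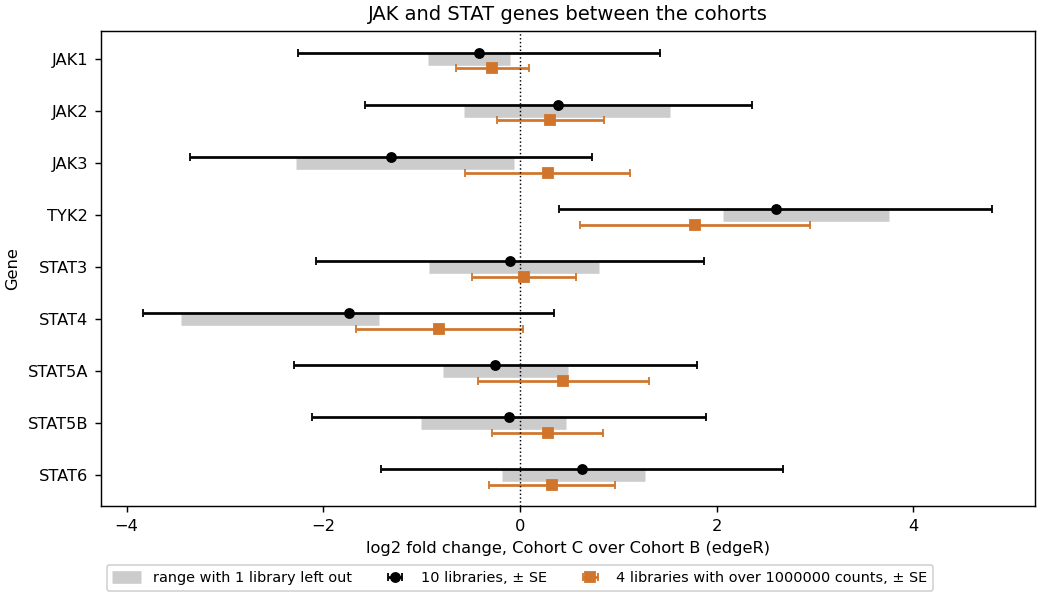
log2 fold change of each gene, Cohort C over Cohort B, from edgeR with 10 libraries (black points, ± SE) and with the 4 deepest (orange squares, ± SE). Grey bars span the values with 1 library left out at a time, and those of JAK1, JAK3, TYK2 and STAT4 do not cross 0. Of these, JAK3 changes side with the 4 deepest libraries, and JAK1 in the exact permutation test and with FPKM (not drawn).

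Many of the low values lay under the level seen in other libraries. Of the 90 values, 42 were at 3 counts or fewer and 39 at 0. At the median level of the libraries with more than 3 counts, 34 of these 42 would have exceeded 3 counts, 12 of 19 in Cohort B and 22 of 23 in Cohort C. At the lowest such level the number was 24. Monkey 14HP33 accounted for 9 of the 34, with 968423 counts in all and 168142 outside MTRNR2L1. By contrast only 1 of 8 low values in monkey 14HP31 would have been visible. Housekeeping genes summed to 275 CPM in monkey 14HP33 and 1352 CPM in monkey 14HP26, against 16420 to 20640 CPM in the deep libraries, so housekeeping genes were low in both of these libraries too. In monkey 15CP4 they summed to 6197 CPM, while none of the 9 genes had a count.

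Upstream of the kinases, 23 of 28 cytokine receptor genes could be tested and 0 were called, with 14 estimates positive, 9 negative and a median log2 fold change of 0.18. The most counted were IL7R, IL2RG, which encodes the common gamma chain, and IL6R. IL7R had 711, 865, 0, 0 and 105 counts in Cohort B and 1714, 0, 28, 3821 and 0 in Cohort C (log2 fold change -0.03, SE 1.88), and IL2RG was at 0.21 (SE 1.95). IL6R, the target of the antibody given to both cohorts, was at 0.83 (SE 1.93) and had 25 counts in monkey 14HP33 and 60 in monkey 15CP4, where STAT3 had none. Ligand genes were sparse, with 8 of 20 tested, 0 called, 6 positive and a median of 0.60. OSM led them with 353 counts in all, followed by IL23A with 201 and IL7 with 113. IL7 had no count in monkey 13EP5 and 98 in monkey 15CP1, within the same cohort.

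Of the pathway's inhibitors, 16 of 17 were tested and 0 called, with 5 positive, 11 negative and a median of -0.43. PTPN2, a phosphatase that acts on JAK1 and JAK3, was at -0.07 (SE 1.99) and PIAS1 at 0.02 (SE 2.01). SOCS3, an inhibitor induced by STAT3, was at -0.63 (SE 1.98) and had 213, 110, 53, 0 and 28 counts in Cohort B and 567, 0, 10, 839 and 1 in Cohort C. The 53 counts in monkey 14HP26 stand beside 6 of STAT3 and 0 of the kinases. All 18 STAT target genes were tested and 0 called, 13 positive and 5 negative, with a median of 0.47. CCND2, a cyclin induced by STAT5, was at -0.41 (SE 1.94), MAF, a factor of IL-10 producing T cells, at 0.50 (SE 1.95), and PRDM1, which encodes Blimp-1, at 0.90 (SE 2.03). None of these lists held a gene past the rule that called 6.43% of all genes.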

How the data were processed

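RNA of flow-sorted Tr1 cells was sequenced as paired-end reads, with 1 library for each of 5 Cohort B and 5 Cohort C monkeys. Samples were grouped by the labels. Per the labels and the study's methods, the authors used HISAT2 2.0.2 to map the macaque reads to the human build hg38 and deposited raw counts per gene (26484 genes). The counting tool's settings for strand, shared reads and overlapping genes are not given in the sources used here, and mapping to human genes can lower counts of diverged genes. The authors also deposited FPKM values from Cuffdiff 2.2.1 (26381 genes). The JAK and STAT genes, and the lists of receptors, ligands, inhibitors, targets and cell type markers, were chosen with earlier results of these data known.

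Counts of genes with at least 10 summed counts (14168) were normalized by TMM and tested with edgeR 4.0.16 in R 4.3.3 (glmQLFTest, Benjamini-Hochberg over all genes tested). CPM were counts over library totals. FPKM were tested as log2(FPKM + 1) with limma 3.58.1 where their mean was at least 1. Permutation tests used Python 3.11.15. Wilson intervals are at 95%, and these and the floor of 3 counts cover counting error only. Total counts per library, from 6076 to 5895609, set the precision. Named genes were all members, the 3 most counted genes of each pathway list, CD4, ITGA2, LAG3, and for JAK1 and STAT3 the 3 genes with the highest correlation. HBD, the library of 15CP6 and the order of TYK2 were singled out after their values were seen. The alternatives covered normalization, filters, edgeR's exact test, DESeq2 1.42.0, limma-voom, the label's replicate numbers as a block, an index suffix as a covariate, FPKM, and each library left out.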

Additional observations from a re-analysis of the deposited data

Results flagged for a closer look

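STAT4 in Cohort B was examined with the other genes as log2(TMM-normalized CPM + 1), and monkey 14HP26 stood far below the other 4 libraries at 0.0, with a gap to the nearest of 0.824 of the group's range. This was 1 of 20 groups of 5 libraries, where chance flags about 1 in 20. The nearest library, that of monkey 13EP12, had 72 counts, and at the median level of 76.0 CPM monkey 14HP26 would have held 8.65 counts. Monkey 14HP26 was at 0 for 8 of the 9 genes, so its 0 was not particular to STAT4. The STAT4 value of monkey 14HP31, 6.32, came from 2 counts, under the floor of 3. A gene at 0 in both of these monkeys could not show such a gap.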

How the results depend on the processing

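Of the 90 values of the 9 genes 42 were at 3 counts or fewer, and at the median level seen elsewhere depth would have kept 8 of these there. No setting called any of the 9 genes. The count of genes called in the whole table was 911 and became 1525 with RLE size factors, 10 with filterByExpr, 341 with edgeR's exact test, 69 with DESeq2, 67 with limma-voom, 98 with the index suffix as a covariate, 117 with the 4 deepest libraries and 0 with limma on FPKM. Leaving out 1 library gave 76 (13EP5) to 698 (14HP31), with 143 without 15CP1, 515 without 14HP33, 567 without 14HP24, 583 without 13EP8, 587 without 15CP6 and 597 without 14HP26. The median log2 fold change of all genes moved from 0.16 to -0.03 with RLE size factors and to -0.10 with library size only, and 3 of the 9 genes were positive under both. Positive estimates numbered 1 of 7 with filterByExpr, which left out 2 of the genes, 7 with the 4 deepest libraries, 6 with FPKM, and 1 to 6 with 1 library left out. TYK2 was positive and STAT4 negative in every fit that gave a value. The replicate numbers of the labels count different monkeys in each cohort, and their deviations did not go together (r between -0.431 and 0.375 for the 5 numbers, with 1 of 10 libraries closest to its own number). With them as a replicate block 0 genes were called, JAK2 was -1.49, STAT5A 0.03 and STAT5B 0.21. Other changes of sign were JAK2 at -1.11 with limma-voom, JAK3 at 0.28, STAT3 at 0.04, STAT5A at 0.44 and STAT5B at 0.28 with the 4 deepest libraries, JAK1 at 0.11, STAT5A at 1.08 and STAT5B at 0.05 with FPKM, STAT5B at -0.58 with log2(FPKM + 0.1), and JAK1 at -0.06 in the permutation test with library size only. Without a change of sign, STAT3 moved from -0.10 to -2.32 with limma-voom and to -3.64 with the block, and from -0.49 to -1.72 with log2(FPKM + 0.1), and STAT4 from -1.74 to -2.74 and -3.29 with the first 2 of these. With 1 library left out, JAK2 ran from -0.57 to 1.53, STAT3 from -0.92 to 0.80, STAT5A from -0.78 to 0.49, STAT5B from -1.01 to 0.47 and STAT6 from -0.18 to 1.27. In the permutation test JAK1 ran from -1.02 to 2.14, JAK2 from -1.80 to 0.57, STAT5A from -0.97 to 0.80 and STAT5B from -1.63 to 0.39. The cause of these changes was not tested.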

Other observations

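The genes whose pattern over the 10 libraries was most like that of JAK1, among 4589 genes with at least 200 counts detected in at least 5 libraries, were ZNF292, CREBBP and RBPJ (Pearson r 0.993, 0.993 and 0.993 on log2 TMM-normalized CPM + 1). For STAT3 they were FOXP1, PRR12 and ENTPD4 (r 0.996, 0.995 and 0.995). Of the other members, STAT5A was closest to JAK1 (r 0.965) and JAK2 to STAT3 (r 0.902), while JAK1 and STAT3 had r 0.654. These are descriptions over 10 libraries that share their depth and their empty libraries. JAK1 and its 3 genes had counts in monkey 14HP24 and none in monkey 14HP26, and STAT3 and its 3 genes the reverse.

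Marker genes of other cells were present beside the T cell genes. With edgeR's test, 0 of 12 T cell, 8 monocyte, 8 B cell, 7 CD8 and NK cell, 4 platelet and 8 housekeeping genes tested were called. Of 2 erythroid genes tested, 1 was called lower in Cohort C, HBD, whose 70 counts all came from monkey 15CP6 (edgeR adjusted p = 0.141).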
